A study of Fukomys damarensis with 47 samples.

Results

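The breeding status comparison described here was restricted to cells grown from the lumbar vertebrae (LV) and exposed to estradiol. It held 8 of the 47 RNA-Seq libraries of the series, chosen by their bone, treatment and breeding status labels: 3 from queens (DVF007, MAF006 and WAF014) and 5 from nonbreeders (DVF008, G4F019, NOF007, WAF011 and WEF001). All animals were female Damaraland mole-rats (*Fukomys damarensis*). The LV1 to LV5 of an animal were pooled, the cells that adhered to the dish were cultured as a mixed population rich in mesenchymal stromal cells of the marrow (bMSCs), and each of these 8 cultures received 10 nM estradiol for 24 hr. Queens were females housed with an unrelated male. The nonbreeders DVF008, G4F019, NOF007 and WAF011 were helpers, and WEF001 was a solitaire, housed alone. Queens were 1006 (DVF007), 1132 (MAF006) and 1005 (WAF014) days old, and nonbreeders were between 1005 and 1232 days old. Each animal gave 1 library, so n counts animals (n = 3 queens and n = 5 nonbreeders throughout, unless stated), and the cultures were mixtures of cells rather than a sorted cell type. Animal names that share their first letters were taken as a natal colony, which gave 2 queen and nonbreeder pairs (DVF007 with DVF008, and WAF014 with WAF011).

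Bone is built by osteoblasts, which arise from marrow stromal cells, and is dissolved by osteoclasts, which arise from the myeloid lineage that also gives rise to macrophages. Estradiol acts through nuclear receptors in both lineages, and in mammals it is known to restrain bone resorption and to influence the growth of long bones. The comparison asked which genes were expressed at different levels in vertebral cultures of queens and of nonbreeders when the hormone was supplied equally to both.

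Counts per library were between 6600865 (MAF006) and 14049422 (WAF011). Levels are given as log2 CPM, the log2 of counts scaled to library size by TMM, with a prior count of 2. Of the stromal markers, *COL1A1*, the main collagen of bone matrix, lay between 7.41 and 9.96 log2 CPM in all 8 cultures, whereas *ENG*, a surface marker of stromal cells, had 6 counts in MAF006 and 73 to 357 in the other libraries. The library of queen MAF006 stood apart from the rest. Its Spearman correlation with the others was between 0.76 and 0.906, whereas the other 7 libraries correlated with each other at 0.895 to 0.976. The first principal component held 47.7% of the variance and placed MAF006 at 120.8, with the other libraries between -74.4 and 26.2. MAF006 had the highest level of the 8 libraries for 27.7% of genes and the lowest for 33.6%. It was the lowest library for 8 of 13 osteoblast and stromal genes and had the highest summed level of lymphoid genes. Each result below is therefore given with and without MAF006 where the difference matters. Without MAF006, queens DVF007 and WAF014 were 1006 and 1005 days old, and nonbreeders G4F019, NOF007 and WEF001 were 1232, 1076 and 1177 days old. Nonbreeders DVF008 and WAF011 were 1005 and 1006 days old. Fold changes given without MAF006 therefore mix breeding status with age and colony, which cannot be told apart in them. The pairs DVF007 with DVF008 and WAF014 with WAF011 each shared a colony and held animals of 1005 and 1006 days. Differences within these pairs are given below without a test.

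In the main edgeR fit, which held breeding status alone, no gene differed between queens and nonbreeders at an FDR of 10% or 20%. Of 11047 genes tested with edgeR's quasi-likelihood method, 0 passed either threshold (0% called), and the smallest adjusted p was 0.745. At an unadjusted p under 0.05 there were 351 genes (3.18% of those tested), fewer than the 552 that this threshold would pass if no gene differed. Of these, 109 (0.987%) were higher in queens and 242 (2.19%) were lower. DESeq2's Wald test called 1 gene at 10%, and limma voom called 0 genes, with 594 and 156 genes at an unadjusted p under 0.05. An edgeR fit with a block on natal colony, which left 1 residual degree of freedom, called 2 genes at 10% and 5 at 20%. Levels of the groups did not overlap for 61 genes with all queens above all nonbreeders (0.552%) and for 95 genes with all queens below (0.86%). Without MAF006, 175 genes had an unadjusted p under 0.05 (1.58%), 130 of them lower in queens (1.18%), and 58 of the 351 were among them. Without nonbreeder WAF011 the number was 1084 genes (9.81%), and without nonbreeder G4F019 it was 122 genes. In the fits that left out 1 library, 0 genes passed an FDR of 10%. Every fold change below is thus a description of 8 cultures, and none of them passed the test across all genes. The adjusted p of every gene named was at least 0.745.

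A symbol was available here for 1117 of the 11047 tested genes. Among those with a higher mean in queens, *PHEX* had the smallest p. It encodes a cell surface protein of osteoblasts and osteocytes that takes part in phosphate balance and mineralization. *PHEX* was at 3.97 log2 CPM in queen DVF007, 7.81 in MAF006 and 3.41 in WAF014, and at 3.17, 4.11, 2.03, 3.37 and 3.21 in nonbreeders DVF008, WAF011, G4F019, NOF007 and WEF001. A single queen culture was high, and the other 2 queens lay within or just below the upper end of the nonbreeder range. The log2 fold change (queens over nonbreeders) of *PHEX* was 3.07 ± 0.90 (SE, edgeR p = 0.00704), and it was 0.40 ± 0.49 without MAF006. The level of *PHEX* gave p = 0.143 in an exact two-sided permutation test, whose 56 ways of choosing the queens allowed no p below 0.0357. In long bone cultures of the same queen MAF006, *PHEX* was at 1.65 log2 CPM with estradiol and 3.90 with vehicle, with all 47 libraries scaled together, so the high level was seen in the LV culture alone. No vehicle library of MAF006 LV was analysed here.

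*CCL8*, a chemokine that attracts monocytes, divided the queens. It was at -0.73 log2 CPM in DVF007, 5.6 in MAF006 and 6.47 in WAF014, against 0.28, 2.28, 2.21, 3.21 and 3.57 in nonbreeders DVF008, WAF011, G4F019, NOF007 and WEF001. Both MAF006 and WAF014 were above every nonbreeder, and DVF007 was below every nonbreeder. *CCL8* had a log2 fold change of 2.89 ± 1.10 (edgeR p = 0.026) and 2.85 ± 1.22 without MAF006. *CCL8* was also high in the long bone cultures of WAF014, at 7.17 with estradiol and 6.88 with vehicle, and of MAF006 with estradiol, at 6.75, but was at 3.68 in MAF006 long bones with vehicle.

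*DIO2*, the enzyme that converts thyroxine to the active thyroid hormone, was at 6.27 log2 CPM in DVF007, 4.08 in MAF006 and 5.18 in WAF014. In nonbreeders it was at 4.33 in DVF008, 4.90 in WAF011, 3.96 in G4F019, 3.92 in NOF007 and 2.85 in WEF001. The groups overlapped through MAF006, and both other queens were above all 5 nonbreeders. Its log2 fold change was 1.31 ± 0.52 (edgeR p = 0.032) with all queens and 1.70 ± 0.47 (edgeR p = 0.0064) without MAF006, but 0.60 (edgeR p = 0.274) without DVF007. Breeding status, age and colony cannot be told apart in the value without MAF006. The highest nonbreeder levels of *DIO2* were in WAF011 and DVF008, the nonbreeders closest in age to DVF007 and WAF014. *NMB*, which encodes the peptide neuromedin B, was the only 1 of these 8 genes whose groups did not overlap (0.552% of all genes lay that way). The queen values of *NMB* were 3.41, 3.18 and 2.63 log2 CPM (DVF007, MAF006 and WAF014), and the nonbreeder values ran from 2.06 to 2.59, so the gap between WAF014 and the nearest nonbreeder was small beside the spread. The remaining genes of this group were *MTF2*, a Polycomb-associated chromatin protein, *CEP78* of the centrosome, *BRCA2* of DNA repair and *NUP54* of the nuclear pore, with log2 fold changes of 0.97, 0.73, 1.17 and 0.69. MAF006 had the highest level of the 8 libraries for each of them, for example 7.43 log2 CPM of *BRCA2* against 4.57 to 5.92 elsewhere, and without MAF006 their log2 fold changes were 0.26, 0.39, 0.10 and 0.23.

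Genes with a lower mean in queens were led by *DPEP1*, a membrane dipeptidase. *DPEP1* was at 3.34 log2 CPM in DVF007, 1.54 in MAF006 and 2.32 in WAF014. Among nonbreeders it was at 5.71 in DVF008, 7.77 in G4F019, 5.09 in NOF007 and 6.0 in WEF001, but at 1.25 in WAF011. The 3 queens lay below 4 of the 5 nonbreeders, and WAF011 was the lowest library of all. This gave *DPEP1* a log2 fold change of -3.66 ± 1.19 (edgeR p = 0.0127) and -3.33 ± 1.41 without MAF006. Within the colonies the 2 queens differed in direction from their paired nonbreeders, by -2.37 log2 CPM in DVF007 and by 1.08 in WAF014.

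*SPON2*, a secreted protein of the extracellular matrix, was lower in every queen than in every nonbreeder (0.86% of all genes lay that way). Queen levels were 4.29, 2.95 and 5.16 log2 CPM (DVF007, MAF006 and WAF014), and nonbreeder levels were 5.97, 5.36, 7.61, 6.62 and 5.19 (DVF008, WAF011, G4F019, NOF007 and WEF001). The groups were separated by a narrow margin, between WAF014 and WEF001. *SPON2* had a log2 fold change of -2.05 ± 0.68 (edgeR p = 0.0142) and -1.65 ± 0.69 (edgeR p = 0.0423) without MAF006.

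*FHL1*, a LIM domain protein abundant in muscle, was at 8.99, 8.24 and 9.13 log2 CPM in queens and at 9.24, 9.60, 10.37, 9.76 and 9.47 in nonbreeders, in the same order of animals. The groups of *FHL1* did not overlap, where 0.86% of all genes had all queens below. The log2 fold change of *FHL1* was -0.90 ± 0.31 (edgeR p = 0.0156) and -0.68 ± 0.30 without MAF006. *IL1R1*, the signalling receptor of interleukin 1, also lay lower in all queens, at 5.09 to 5.59 log2 CPM against 5.6 to 6.78, although WAF014 and WAF011 were nearly equal. The log2 fold change of *IL1R1* was -0.81 ± 0.30 (edgeR p = 0.0225), and -0.70 ± 0.34 (edgeR p = 0.068) without MAF006. The remaining genes of this group overlapped between groups: *RAB27A* of vesicle secretion (-1.41 ± 0.48), *ITGA11*, a subunit of a collagen-binding integrin (-1.61 ± 0.58), *RHOBTB2*, a BTB domain protein (-1.22 ± 0.45), and *PTAFR*, the receptor of platelet-activating factor (-2.52 ± 0.93). Without MAF006 their log2 fold changes were -1.21, -1.23, -1.11 and -2.83, in the same order. MAF006 was the lowest library for 6 of the 8 genes with a lower mean. All 16 genes kept their direction without MAF006, and 5 of them then had an unadjusted p under 0.05, where 1.58% of all genes did. The 16 had been chosen by p in a fit that held the remaining libraries too, so this is not a separate test.

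**Figure D1:**
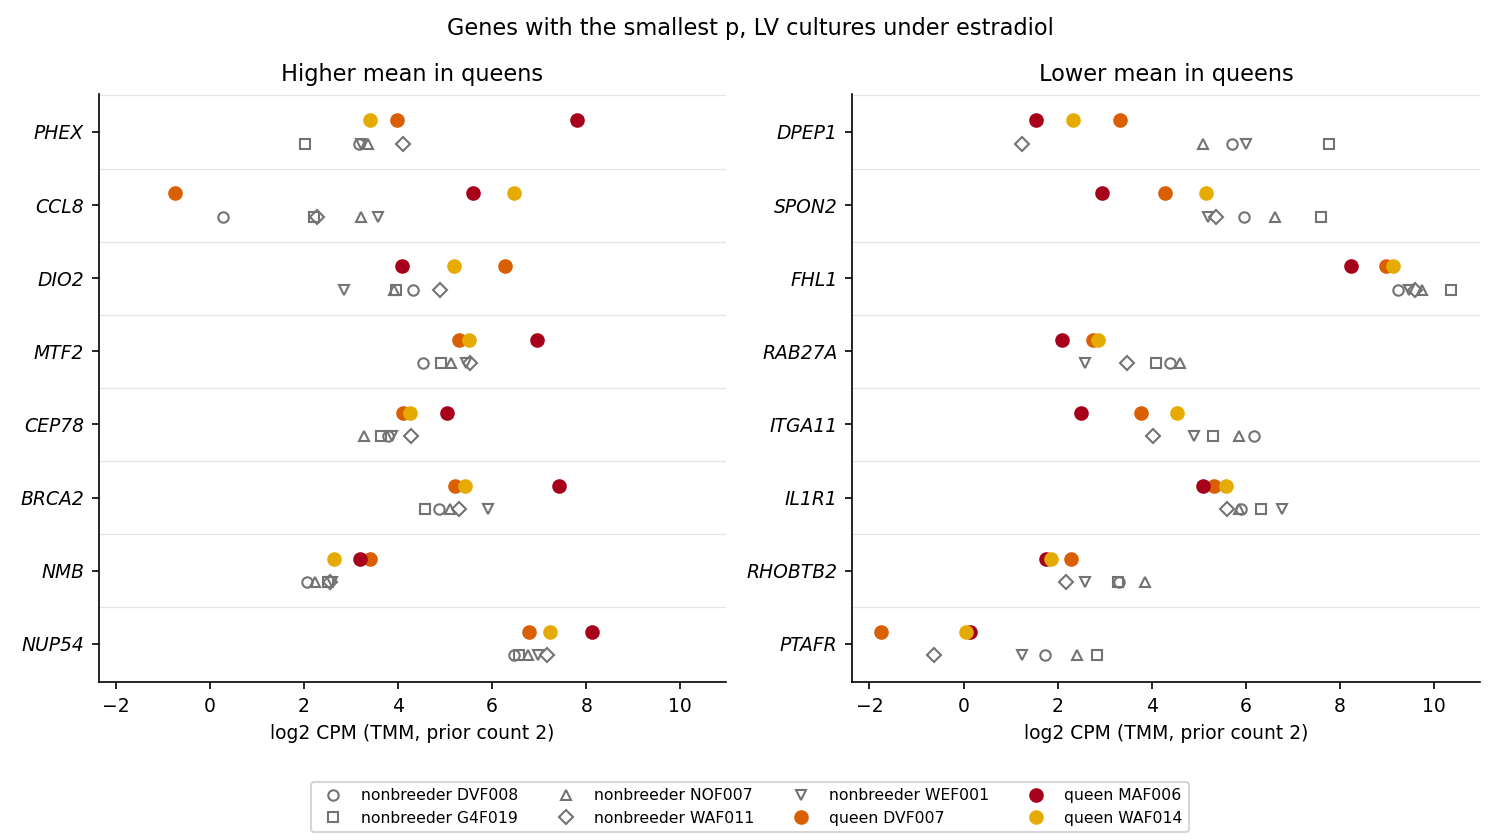
Levels (log2 CPM) of the 8 genes with a symbol and the smallest p in each direction, with 1 point per library, filled for the 3 queens and open for the 5 nonbreeders. MAF006 is the highest point for 5 of the 8 genes on the left and the lowest for 6 of the 8 on the right, and the groups separate for *NMB*, *SPON2*, *FHL1* and *IL1R1*.

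Over all tested genes, those with the smallest p were outside the 1117 of 11047 that were given a symbol here. They may have symbols that were not available. ENSFDAG00000017731 was at 5.55, 4.83 and 5.26 log2 CPM in queens DVF007, MAF006 and WAF014 and between 6.05 and 6.46 in the nonbreeders, with a log2 fold change of -1.0 ± 0.22 (edgeR p = 0.00132). ENSFDAG00000005610 was at -0.51, -1.02 and -0.19 in the same queens and between 0.48 and 2.33 in nonbreeders, a log2 fold change of -2.63 ± 0.58 at a low level of expression. These genes separated the groups and kept folds of -0.83 ± 0.21 and -2.40 ± 0.66 without MAF006. In the opposite direction, ENSFDAG00000010414 was at 4.72, 5.05 and 5.87 log2 CPM in queens and between 0.78 and 4.13 in nonbreeders, a log2 fold change of 2.53 ± 0.66 (edgeR p = 0.00381) and of 2.64 ± 0.74 without MAF006. ENSFDAG00000020369 was at 6.49, 7.26 and 6.15 in queens and between 5.57 and 5.88 in nonbreeders, with a log2 fold change of 1.02 ± 0.25, and of 0.64 ± 0.19 without MAF006. The groups of all 4 genes did not overlap, so the direction in both colony pairs was fixed by that and adds nothing to it. Of all genes, 0.552% had all queens above and 0.86% all queens below. The 4 genes were chosen by p in these same libraries, so their separation is not independent of that choice.

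Gene lists for the cell lineages and processes of bone were then read by their counts and medians. None of 14 lists contained a gene at an FDR of 10%. The median log2 fold change over all tested genes was -0.02, and -0.05 without MAF006, and 51.6% of tested genes had a negative fold change, or 57% without MAF006. Because these are bulk cultures, fewer cells of a type and less RNA per cell cannot be told apart.

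Genes of the extracellular matrix and its turnover had mostly negative fold changes. Of 18 matrix genes, 17 had a negative log2 fold change, with a median of -0.74, and 14 were negative without MAF006, with a median of -0.60. Those with an unadjusted p under 0.05 were *SPON2*, *SCUBE3* and *LTBP1*, all lower in queens, where 2.19% of all genes were called in that direction. Without MAF006 only *SPON2* kept such a p among the 18. *SCUBE3*, a secreted cell surface glycoprotein, was at 1.02, 0.48 and 2.27 log2 CPM in queens DVF007, MAF006 and WAF014 and between 1.84 and 3.28 in nonbreeders (log2 fold change -1.31 ± 0.57). *LTBP1*, which holds latent TGF-β in the matrix and is named here because it was among those 3, was at 8.16 to 8.71 in queens and 8.36 to 10.03 in nonbreeders (log2 fold change -0.86 ± 0.38). MAF006 had the lowest level of 14 of the 18 matrix genes, and nonbreeder G4F019 the highest of 9. The summed level of the list was 3915 to 5183 CPM in queens and 4703 to 7308 CPM in nonbreeders, so the sums overlapped. Most of each sum was *THBS1*, at 11.65 to 12.45 log2 CPM, so the sums say little about the other members.

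The osteoblast and stromal list gave a smaller shift, with 10 of 13 tested members negative and a median of -0.49 (-0.34 without MAF006). It held 1 gene with an unadjusted p under 0.05 in each direction, *PHEX* higher and *ITGA11* lower. Of all genes, 0.987% were called higher and 2.19% lower. *ITGA11* was at 3.78, 2.49 and 4.54 log2 CPM in queens DVF007, MAF006 and WAF014 and at 6.18, 4.03, 5.31, 5.86 and 4.90 in nonbreeders DVF008, WAF011, G4F019, NOF007 and WEF001. WAF011 was thus the 1 nonbreeder within the queen range. *COL1A1* had a log2 fold change of -0.38 ± 0.50 (exact permutation p = 0.821), with the highest and the lowest level both in nonbreeders, at 9.96 in DVF008 and 7.41 in WEF001.

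The contractile genes of smooth muscle and stress fibers, which are also expressed by cultured stromal cells, held 4 of 10 tested members at an unadjusted p under 0.05, all lower in queens, where 2.19% of all genes were called in that direction. These were *FHL1*, *VCL*, *CSRP1* and *MYL9*, the last pair named after their values were seen. *VCL*, which anchors actin at cell contacts, was at 5.37, 4.57 and 5.66 log2 CPM in queens DVF007, MAF006 and WAF014 and at 7.49, 4.86, 7.31, 6.72 and 5.82 in nonbreeders DVF008, WAF011, G4F019, NOF007 and WEF001. The log2 fold change of *VCL* was -1.46 ± 0.57, and WAF011 again fell among the queens. *MYL9*, the myosin light chain of smooth muscle, and *CSRP1*, a LIM protein of the actin cytoskeleton, had log2 fold changes of -0.68 ± 0.30 and -1.03 ± 0.44. Without MAF006, 0 of the 10 had an unadjusted p under 0.05, 7 were negative and the median moved from -0.47 to -0.53. The summed level was 1217 to 1946 CPM in queens and 2081 to 3426 CPM in nonbreeders. These sums did not overlap, and no test was made on them. Most of each sum came from *FHL1*, *TPM3*, *CSRP1* and *MYL9*. *FHL1*, chosen by its small p, was the only 1 of the 10 members whose groups did not overlap.

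Of 8 genes of adipocytes and lipid storage, 6 were negative (median -0.53, and -0.58 without MAF006). *PPARG*, the regulator of adipocyte differentiation, was at 2.56, 2.09 and 3.23 log2 CPM in queens and at 3.15 to 4.06 in nonbreeders (log2 fold change -0.85 ± 0.37). *AOC3*, an amine oxidase of adipocytes and vascular smooth muscle, was at 2.66, 1.75 and 3.83 in queens and 3.26 to 4.92 in nonbreeders (log2 fold change -1.51 ± 0.56). Both genes had an unadjusted p under 0.05 with all 8 libraries, where 2.19% of all genes were called in that direction. The groups of both overlapped through queen WAF014. Without MAF006 the log2 fold changes were -0.62 ± 0.37 for *PPARG* (edgeR p = 0.133) and -1.14 ± 0.55 for *AOC3* (edgeR p = 0.0694).

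Genes of cell division turned on 1 library. With all 8 libraries 16 of 21 had a positive log2 fold change, with a median of 0.33, and without MAF006 all 21 were negative, with a median of -0.45. None had an unadjusted p under 0.05 in either direction with all libraries, where 3.18% of all genes did, and none had without MAF006. Breeding status, age and colony cannot be told apart in the 21 negative values. MAF006 had the highest level of 16 of these genes, and DVF007 the lowest of 12. The summed level was 3374 CPM in MAF006, 1011 in DVF007 and 1316 in WAF014. In nonbreeders it was highest in WEF001, at 2443 CPM, and ran from 1051 to 1669 CPM in the others. *ARHGAP11A*, a GTPase-activating protein expressed in dividing cells, was at 6.84 log2 CPM in MAF006 against 4.15 to 5.37 in the other 7 libraries. *CENPW* of the centromere was at 6.22 in MAF006 against 4.17 to 5.29. Their log2 fold changes, 0.87 ± 0.53 and 0.62 ± 0.41, became -0.38 ± 0.30 and -0.06 ± 0.33 without MAF006.

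**Figure D2:**
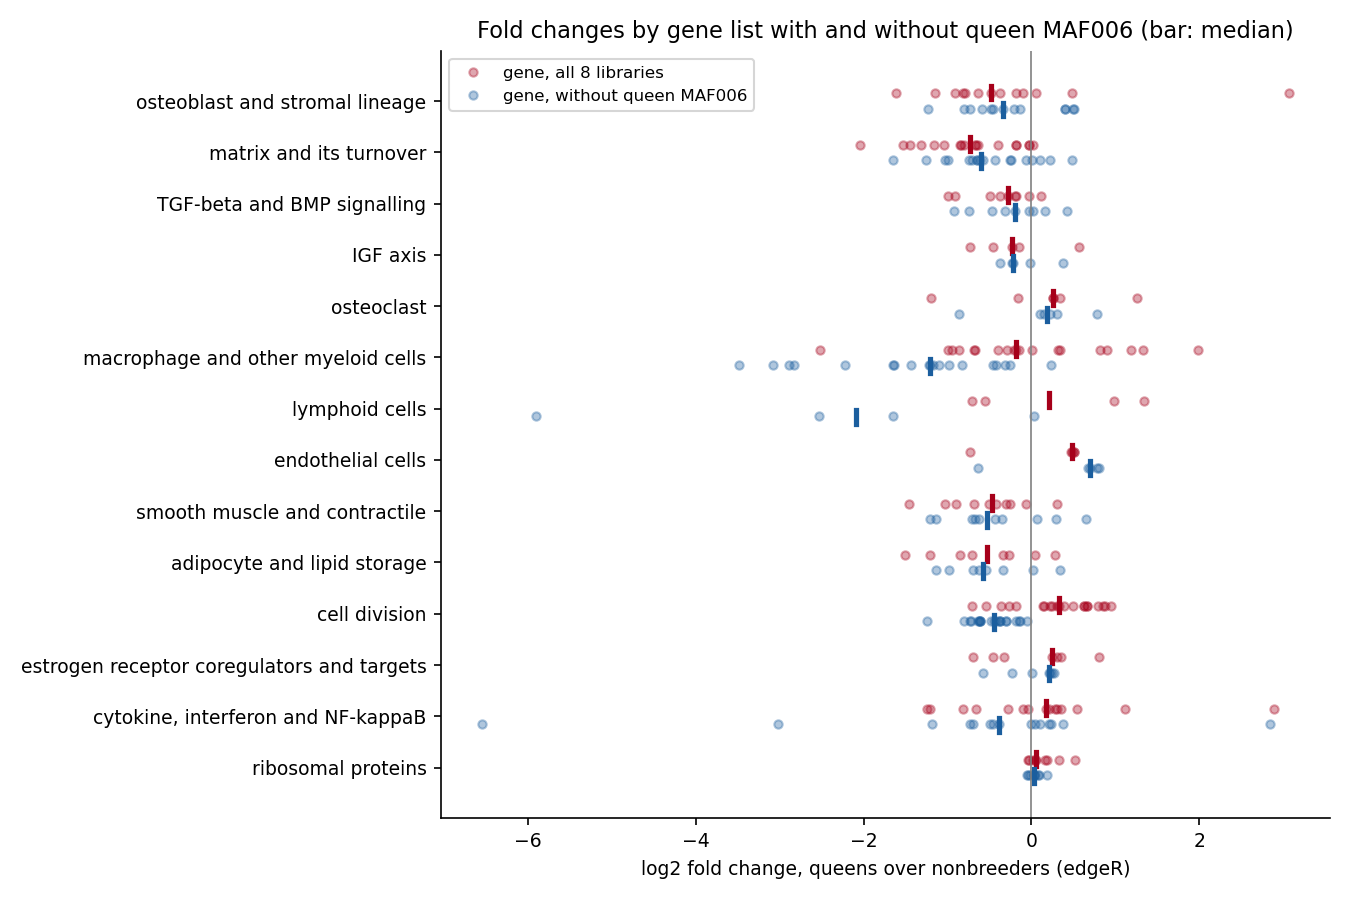
Log2 fold change (queens over nonbreeders) of each gene in the 14 lists, with all 8 libraries in red and without queen MAF006 in blue, and bars at the medians. The median of the cell division list moves from 0.33 to -0.45 and that of the matrix list from -0.74 to -0.60.

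Myeloid genes varied widely between cultures of the same breeding status. The summed level of 19 tested genes of macrophages and other myeloid cells was 97.3 CPM in DVF007, 987 in MAF006 and 341 in WAF014 among queens. In nonbreeders it was 243 CPM in DVF008, 197 in WAF011, 562 in G4F019, 987 in NOF007 and 433 in WEF001. Both groups thus ran over a wide and shared range, with low sums in both members of the DVF007 and DVF008 pair and in WAF011. The animals with these low sums, together with WAF014, were those aged 1005 to 1006 days. Age and colony cannot be told apart here. Of the 19 genes 11 were negative (median -0.19), and 18 were negative without MAF006 (median -1.21). *PARVG* and *CD180* had no counts in DVF007, *TLR8* and *PARVG* none in DVF008 and *HPGDS* none in WAF011, all named after their values were seen, and every member was detected in the other 5 libraries. Without MAF006 both remaining queens were 1005 to 1006 days old and 3 of the 5 nonbreeders were 1076 to 1232 days old, so breeding status, age and colony cannot be told apart in those 18 negative values. *LAPTM5*, a lysosomal protein of blood cells, was at 4.51, 8.25 and 7.39 log2 CPM in queens DVF007, MAF006 and WAF014 and at 6.35, 6.0, 7.57, 8.83 and 7.21 in nonbreeders DVF008, WAF011, G4F019, NOF007 and WEF001. *CORO1A*, an actin regulator of leukocytes, lay between 3.39 and 5.80 in queens and between 3.21 and 6.13 in nonbreeders. Neither separated the groups (exact permutation p = 0.679 and p = 0.571). *PTAFR* was the 1 gene of these 19 with an unadjusted p under 0.05, where 2.19% of all genes were called lower in queens. Its level was low, at -1.76, 0.13 and 0.04 log2 CPM in queens and -0.64 to 2.83 in nonbreeders. *DAPP1*, an adaptor of B cell and myeloid signalling, had a log2 fold change of -0.99 ± 0.78, and of -2.22 ± 0.79 without MAF006.

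The lymphoid list was highest in MAF006, at 419 CPM summed over 4 tested genes, against 41 CPM in DVF007 and 103 CPM in WAF014 and 29.2 to 125 CPM in nonbreeders. Most of this sum was *IL7R*, the receptor of interleukin 7, which was at 8.55 log2 CPM in MAF006 and at 4.18 to 6.72 in the other libraries (log2 fold change 1.34 ± 0.73, and 0.03 ± 0.66 without MAF006). *GRAP2*, a T cell adaptor, was at 1.66, 3.30 and 1.17 in queens and 0.91 to 3.74 in nonbreeders. How far these markers contributed to the separation of MAF006 was not tested.

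Genes of the osteoclast list did not separate the groups. *CTSK*, the collagen-degrading protease of osteoclasts that cultured stromal cells also express, was at 9.23 in DVF007, 6.87 in MAF006 and 9.03 log2 CPM in WAF014, and at 7.44 to 8.77 in nonbreeders. MAF006 was the lowest library and both other queens were above all nonbreeders. DVF007 was 0.89 log2 CPM above its paired nonbreeder DVF008, and WAF014 was 0.26 above WAF011. These pair differences were not tested. The log2 fold change of *CTSK* was 0.34 ± 0.47 with all libraries (exact permutation p = 0.893) and 0.79 ± 0.30 without MAF006 (edgeR p = 0.0301). Breeding status, age and colony cannot be told apart in the value without MAF006. *ADAM8*, a metalloprotease of the myeloid lineage and of osteoclasts, was at -0.51, 1.10 and 3.21 in queens and -0.64 to 3.20 in nonbreeders (log2 fold change -0.17 ± 1.03). *ATP6V0A1* and *ATP6V1D*, subunits of the proton pump that acidifies the resorption pit and other compartments, had log2 fold changes of -1.19 ± 0.55 and 0.26 ± 0.21.

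Members of 4 gene ontology terms, which the study had picked from this series and which are therefore not independent of these samples, were followed by colony. None of their 8 leukocyte chemotaxis genes, 4 superoxide anion generation genes, 6 bone remodeling genes and 8 cytokine secretion genes, some of which are shared between terms, had an unadjusted p under 0.05. Their medians were 0.34, 1.17, 0.55 and 1.13 with all libraries and -0.74, 0.32, 0.51 and -0.22 without MAF006. All members of each term were higher in queen WAF014 than in WAF011, with median differences of 2.32, 3.08, 3.02 and 3.01 log2 CPM, where 49.4% of all genes were higher in that queen. In the same pair 16 of the 19 myeloid genes were higher in WAF014 (median 1.28), with sums of 341 and 197 CPM, and the part of myeloid cells in the term differences was not tested. In queen DVF007 the medians over DVF008 were 0.08, 0.60, -0.03 and 0.12, where 47.6% of all genes were higher. *ADAM8*, a member of the chemotaxis and bone remodeling terms, differed by 3.85 log2 CPM between WAF014 and WAF011 and by -0.78 between DVF007 and DVF008. The summed level of the cytokine secretion genes was 4113 CPM in WAF014 and 439 in WAF011, but 60.8 in DVF007 and 54.6 in DVF008.

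**Figure D3:**
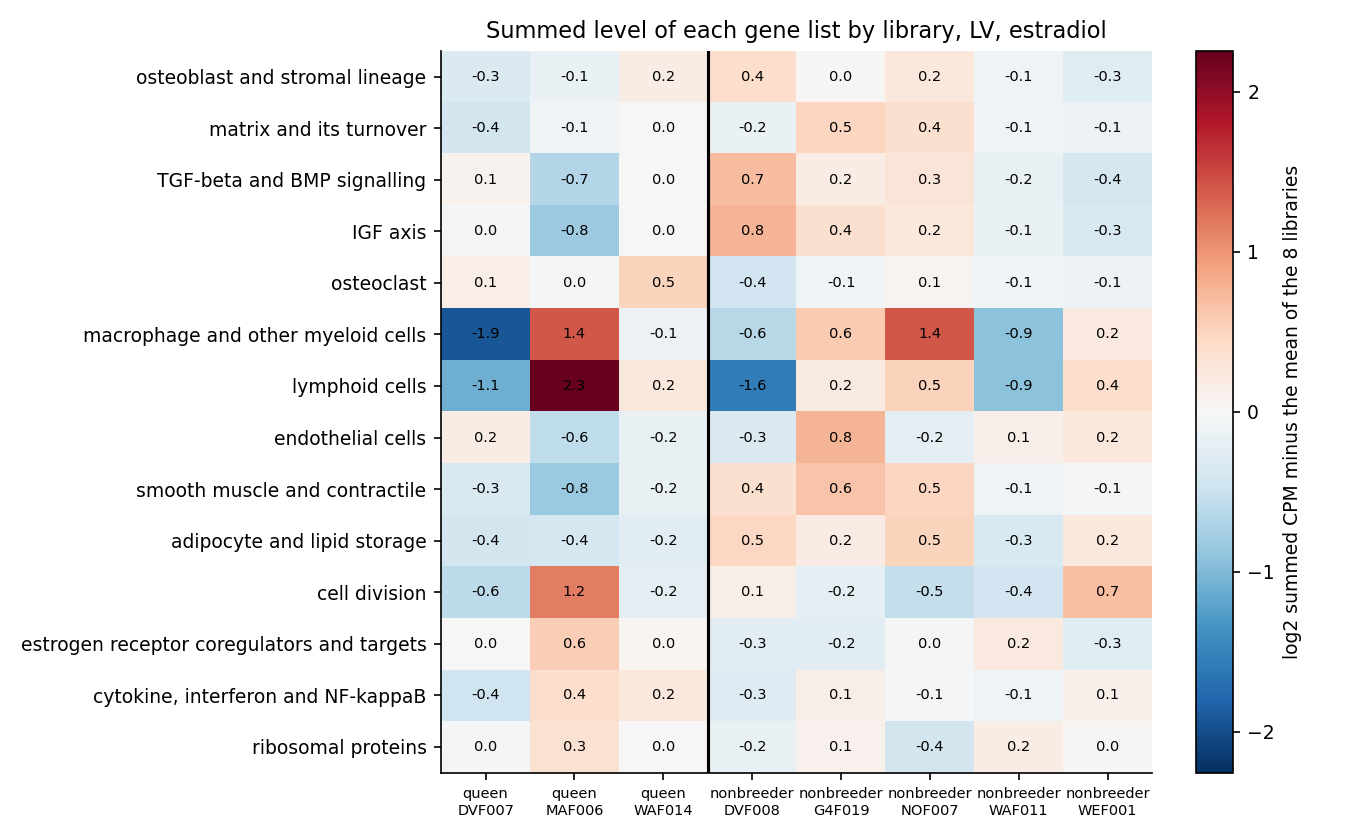
Summed level of each gene list by library, as log2 CPM minus the mean of the 8 libraries, with queens left of the line. The myeloid row runs from -1.9 in queen DVF007 to 1.4 in queen MAF006 and in nonbreeder NOF007. The contractile row is below 0 in all 3 queens and also in nonbreeders WAF011 and WEF001. Abundant members make up most of some sums, such as *THBS1* in the matrix row.

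Signalling genes gave few values beyond the spread. Of 9 tested genes of TGF-β and BMP signalling 8 were negative (median -0.28, and -0.19 without MAF006) and 0 had an unadjusted p under 0.05. *ENG*, a TGF-β coreceptor found on stromal and endothelial cells, was at 0.13 log2 CPM in MAF006 but at 4.06 and 3.43 in the other queens, within the 2.89 to 4.93 of the nonbreeders (log2 fold change -1.0 ± 0.79, and -0.47 ± 0.60 without MAF006). *TGFBR3*, a coreceptor of TGF-β, was at 3.10 in DVF007, 4.68 in MAF006 and 3.41 in WAF014 and at 3.72 to 4.87 in nonbreeders (log2 fold change -0.28 ± 0.43, and -0.93 ± 0.38 without MAF006). *TSKU*, which encodes tsukushi, a secreted modulator of BMP signalling, was at 3.94 to 4.60 in queens and 4.32 to 6.22 in nonbreeders (log2 fold change -0.91 ± 0.44).

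Of 5 genes of the IGF axis 4 were negative, with a median of -0.24. *SOCS2*, a feedback inhibitor of growth hormone signalling, had a log2 fold change of 0.57 ± 0.31, and *IGFBP4*, which binds IGFs, one of -0.45 ± 0.31. Without MAF006 the value of *SOCS2* was 0.37, and that of *IGFBP4* was -0.23 without MAF006 and -0.86 without WAF014. Among 7 coregulators and targets of the estrogen receptor, 4 were positive and 0 had an unadjusted p under 0.05. *NRIP1*, a corepressor that estradiol induces in many tissues, was at 6.59, 7.83 and 6.50 log2 CPM in queens DVF007, MAF006 and WAF014 and at 5.88, 6.74, 5.93, 6.77 and 5.91 in nonbreeders DVF008, WAF011, G4F019, NOF007 and WEF001. MAF006 alone was above all nonbreeders, and the log2 fold change of *NRIP1* was 0.81 ± 0.37 (exact permutation p = 0.214) and 0.24 ± 0.31 without MAF006. *MED12* of the Mediator complex had a log2 fold change of -0.70 ± 0.44.

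In the cytokine and interferon list 8 of 15 tested genes were positive (median 0.17, and -0.39 without MAF006). At an unadjusted p under 0.05 *CCL8* was higher and *IL1R1* lower, where 0.987% and 2.19% of all genes were. Of 5 endothelial genes 4 were positive, with a median of 0.48. *ICAM2*, an adhesion molecule of endothelium and leukocytes, was at 3.94 in DVF007, 2.56 in MAF006, 2.43 in WAF014 and 2.43 to 2.84 in nonbreeders. *RHOJ*, an endothelial GTPase, was at 6.48 to 6.83 in queens and 6.55 to 8.26 in nonbreeders. Ribosomal protein genes, a reference group, had a median of 0.06, with *RPS2* at 0.52 ± 0.28 and *RPL6* at 0.33 ± 0.25. Without MAF006 these were 0.08 ± 0.21 and 0.04 ± 0.23.

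The colony pairs were compared because the paired animals differed in breeding status while sharing a colony and, to within 1 day, an age. Differences between a queen and her paired nonbreeder ran in different directions in these colonies for several lists. Of the 21 cell division genes, 20 were lower in DVF007 than in DVF008 (median -0.93) and 17 were higher in WAF014 than in WAF011 (median 0.20). Of the 18 matrix genes 14 were lower in DVF007 (median -0.86) and 14 were higher in WAF014 (median 0.15). Myeloid genes were lower for 11 of 19 in DVF007 (median -0.93) and higher for 16 of 19 in WAF014 (median 1.28). All 8 adipocyte genes were lower in DVF007, and 5 were higher in WAF014. Over all tested genes 11.7% were higher in the queen in both pairs and 14.6% were lower in both. Of the 16 genes with a symbol and the smallest p, *DIO2*, *BRCA2*, *NMB* and *NUP54* were higher and *SPON2*, *FHL1*, *RAB27A*, *IL1R1* and *RHOBTB2* lower in both queens. All 16 were chosen by p in these same libraries, so their directions in the pairs are not independent of that choice. For *NMB*, *SPON2*, *FHL1* and *IL1R1*, whose groups did not overlap, the direction was fixed. These pair differences are values of 4 animals and are given without a test.

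**Figure D4:**
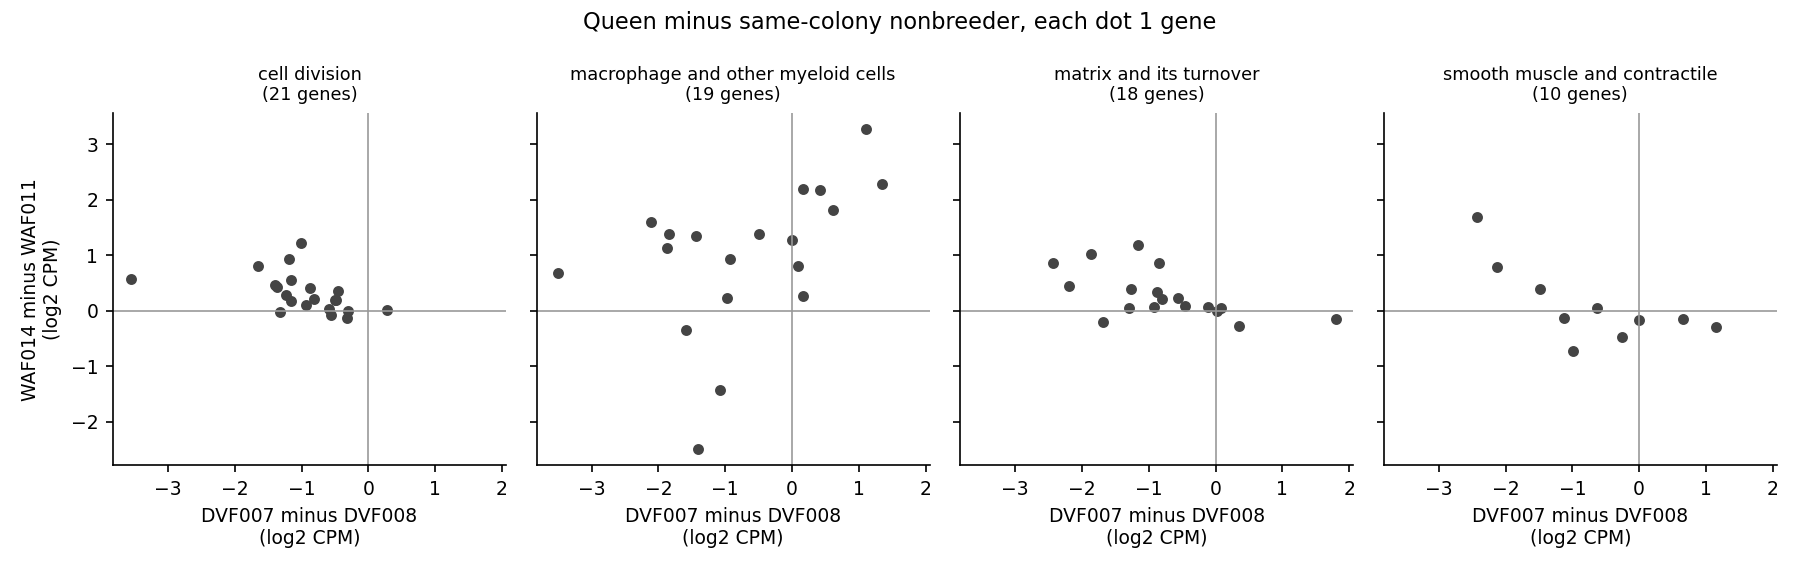
Difference in log2 CPM between queen DVF007 and nonbreeder DVF008 (x axis) and between queen WAF014 and nonbreeder WAF011 (y axis), with 1 point per gene in 4 lists. Points of the cell division list lie left of 0 for 20 of 21 genes and above 0 for 17 of 21.

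Whether the breeding status difference was particular to the estradiol cultures was asked in the 7 animals with LV libraries of both treatments (2 queens, DVF007 and WAF014, and 5 nonbreeders). The difference between the queen effect with estradiol and with vehicle was tested with animal as a block. No gene passed an FDR of 10% (0 of 11047, edgeR, smallest adjusted p = 0.612), and 188 genes (1.7%) had an unadjusted p under 0.05. DESeq2 also called 0 genes, with 526 at an unadjusted p under 0.05. This result rested on nonbreeder WAF011, without which 1053 genes (9.53%) passed an FDR of 10%, 808 of them (7.31%) in the negative direction, with the smallest adjusted p at 0.0996. Leaving out any of the other 4 nonbreeders gave 0 genes.

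These libraries came from the same animals, so the treatments are not independent samples of queens. Among the genes with a symbol and the smallest p, 5 of the 8 higher in queens had the opposite sign under vehicle. So did 5 of the 8 lower in queens. All of them had been chosen by p in the estradiol libraries, so their direction there is not independent of that choice. *DIO2* was 1.73 log2 CPM higher in the 2 queens under estradiol and 1.48 higher under vehicle, with all 47 libraries scaled together. *FHL1* was lower by similar amounts, with differences of -0.63 and -0.64, and *NMB* was 0.62 and 0.27 higher. *CCL8* differed by 0.58 under estradiol and by -0.48 under vehicle. *PTAFR* differed by -2.31 under estradiol and by 0.66 under vehicle, and had an interaction estimate of -3.24 ± 1.38 (edgeR p = 0.0442, adjusted p = 0.612). *RHOBTB2* had one of -1.60 ± 0.65 (edgeR p = 0.0372, adjusted p = 0.612). *PTAFR* and *RHOBTB2* were chosen by p in the estradiol libraries, which form 1 side of this comparison. Their interaction p-values are therefore not independent of that choice. By list, the estimates were negative for 11 of 13 osteoblast and stromal genes (median -1.10), for 15 of 18 matrix genes (median -0.72), for 8 of 10 contractile genes (median -0.79) and for 8 of 8 adipocyte genes (median -0.45). They were positive for 9 of 9 ribosomal protein genes (median 0.50), while 53% of all genes were negative (median -0.06). The part of ribosomal protein transcript levels in these estimates was not tested.

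**Figure D5:**
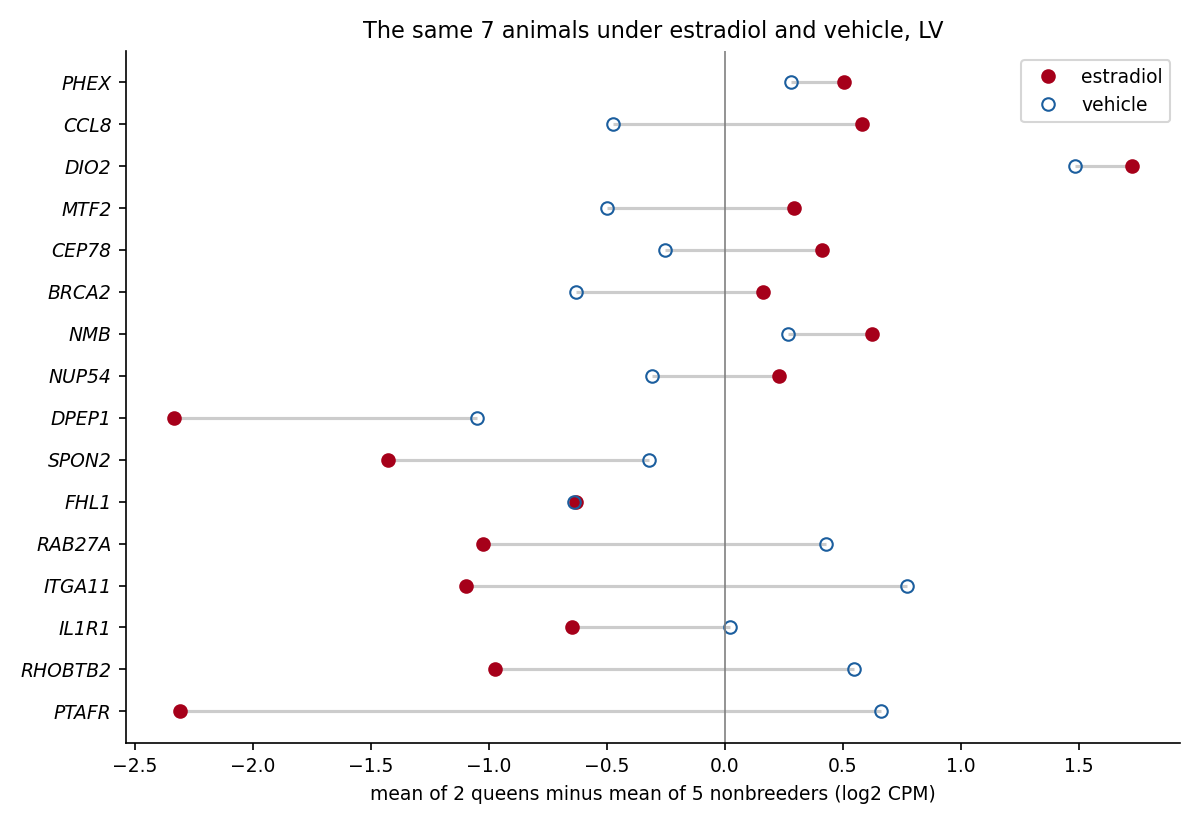
Mean level of 2 queens minus mean level of 5 nonbreeders (log2 CPM) in LV cultures of the same 7 animals, with estradiol (filled) and with vehicle (open), for the 16 genes with a symbol and the smallest p. *DIO2* lies at 1.73 and 1.48 and *FHL1* at -0.63 and -0.64, while *PTAFR* lies at -2.31 with estradiol and 0.66 with vehicle. In each direction, 5 of the 8 genes lie on the other side of 0 with vehicle.

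The same question was asked of bone type in the 5 animals with estradiol libraries of both LV and long bones (queens MAF006 and WAF014, and nonbreeders NOF007, DVF008 and WAF011). No gene passed an FDR of 10% (0 of 11047, edgeR, smallest adjusted p = 0.674), and 79 genes (0.715%) had an unadjusted p under 0.05. DESeq2 called 1 gene, ENSFDAG00000018906, which was also called in edgeR without nonbreeder DVF008 (adjusted p = 0.0749). *CCL8* differed between queens and nonbreeders by 4.10 log2 CPM in LV and by 5.70 in long bones, and *SPON2* by -1.92 in LV and by -3.50 in long bones. The interaction estimate of *SPON2* was 1.56 ± 0.54 (edgeR p = 0.0181) and that of *ITGA11* 2.18 ± 0.83 (edgeR p = 0.0275). Both genes were chosen by p in the LV estradiol libraries, which form 1 side of this comparison, so these values are not independent of that choice. *PHEX* differed by 2.06 in LV and by -0.80 in long bones, with an interaction estimate of 2.80 ± 1.48 (edgeR p = 0.0918). The estimates were positive for 17 of 18 matrix genes (median 1.10) and for 11 of 13 osteoblast and stromal genes (median 1.24), against 54.6% of all genes (median 0.06). The queen values on which these estimates rest came from 2 animals, of which MAF006 was the library that stood apart.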

How the data were processed

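According to the submitters' processing notes and the study's methods, the authors trimmed reads (cutadapt 2.3), mapped them to DMR_v1.0 (STAR) and counted unique alignments per Ensembl gene (HTSeq). The deposited values are raw counts, 1 library per animal, bone and treatment. The strand setting is not given in the sources used here, so overlapping, antisense and near-identical genes are uncertain. A gene was tested if it reached a CPM of 2 in 25% of the 47 libraries, which kept 11047 of 33562 genes. The tests, all two-sided, were edgeR 4.0.16 quasi-likelihood fits (TMM, Benjamini-Hochberg adjustment, R 4.3.3), with DESeq2 1.42.0 and limma 3.58.1 voom as alternatives. Only the edgeR fits were tried on simulated counts. Exact permutation tests (scipy 1.17.1) covered 9 genes. Days in culture and relatedness, which the study's model included, entered no fit. Symbols came from the part of a supplementary table of the study that was available here, and covered 1117 tested genes. The reference gene table matched 0 identifiers. A gene shown without a symbol may therefore have one. No libraries were copies of each other (chi-square per degree of freedom at least 36.6 over 13 pairs). P-values measure the spread between single cultures of different animals.

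The members, lists and tests were chosen with earlier results of these data known. Named genes were those at an FDR of 10%, filled to 8 in each direction by smallest p among genes with symbols, 9 chosen genes, the 2 with the smallest p in each list, and 2 without a symbol in each direction. Exceptions are marked in the text.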

Additional observations from a re-analysis of the deposited data

How the results depend on the processing

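At an FDR of 10%, 0 genes passed in 18 of 20 alternatives. DESeq2's Wald test called 1 gene (ENSFDAG00000018109, lower in queens). The replicate block on natal colony, which left 1 residual degree of freedom, called 2 (ENSFDAG00000007636 and ENSFDAG00000016314, both higher in queens), and at an FDR of 20% these tests called 1 and 5 genes. Same-colony animals deviated together in 1 pair (correlation across genes 0.596) and not in the other (-0.0627). The number of genes at an unadjusted p under 0.05, 351 in the fit reported, was 811 with no filter on low counts, 594 with DESeq2, 156 with limma voom, 1112 with sample quality weights, 179 with the replicate block and 766 with age group as a term, an alternative chosen after seeing the data. Leaving out 1 library gave 122 (G4F019) to 1084 (WAF011) genes at that threshold, with 175 without MAF006, 197 without NOF007 and 207 without DVF008, and 0 at either FDR. Of the 351 genes, 109 were higher in queens, and with all 21 LV libraries in one fit 257 of 413 were.

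For estradiol against vehicle, leaving out 1 nonbreeder gave 0 to 1053 genes at an FDR of 10%. For LV against long bones it gave 0 to 1, no filter gave 5 (including ENSFDAG00000018906) and DESeq2 1.

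Of 47 named genes, 38 kept their direction in all 13 alternatives tried for them, and none passed an FDR of 10% in any. With the replicate block the log2 fold change was -0.31 for *ARHGAP11A*, -0.046 for *CENPW*, 0.067 for *RHOJ* and 1.87 for *ADAM8*. With age group as a term it was -0.14 for *CTSK*, 1.21 for *ADAM8* and 0.31 for *LAPTM5*. Without MAF006 it was -0.38 for *ARHGAP11A*, -0.059 for *CENPW* and 0.15 for *ADAM8*. Without DVF007 it was -0.026 for *CTSK*, -0.19 for *ICAM2*, 0.35 for *ADAM8*, 0.33 for *LAPTM5* and 0.0087 for *CORO1A*. Without NOF007 it was 0.017 for *ADAM8* and 0.45 for *LAPTM5*, without G4F019 0.26 for *ADAM8*, and without DVF008 0.10 for *COL1A1*. The cause of these changes was not tested. Leaving out 1 library moved the log2 fold change by over 1.5 times for 29 of the 47 genes, for 23 of them when that library was MAF006. *PTAFR* rested on 1 to 57 counts per library, and the effect of depth was not tested.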
